A study of Mus musculus with 4 samples.

Results

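The ion channel genes of the mouse testis were examined in RNA of Tslc1+/+ and Tslc1-/- males. The list was formed by gene symbol alone, and no signal or change entered the rule, which takes every gene whose symbol marks a potassium, sodium, calcium, CatSper, chloride, TRP, HCN, cyclic nucleotide-gated or mitochondrial porin (VDAC) channel or a subunit of one. The array reads 84 such genes, of 8251 genes in all, through 109 probe sets. A gene is represented by its probe set of highest mean signal over the 4 arrays. No CatSper gene was found among the named probe sets. Trpc4ap matches by its symbol but encodes a protein that binds TRPC4 and is not itself a channel.

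The samples were 2 Tslc1+/+ and 2 Tslc1-/- arrays of testis RNA, from male C57BL/6J mice aged 16 weeks. Tslc1 is now called Cadm1, and its product is an adhesion molecule of the immunoglobulin superfamily. The genotype is the only labelled difference between the groups. The labels give neither the deleted part of the gene nor how many animals stand behind an array. Whether arrays of one genotype hold RNA of different mice is not labelled either, and every p-value here therefore rests on array-to-array spread, which may be technical.

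Ion channels let ions cross membranes and set the membrane voltage of cells. Spermatids express channels that serve the later sperm, where calcium entry through CatSper and potassium efflux through the Slo-family channel encoded by Kcnu1 are known to be needed for hyperactivated swimming and fertilization. Somatic cells of the testis, and nerves and vessels in it, use other channels, and the ClC exchangers, CLIC proteins and VDAC porins act on internal membranes of most cells.

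Signals correlated between arrays, on the log2 scale over all probe sets, with r from 0.9304 to 0.9413, and pairs of one genotype were not set apart from mixed pairs. On its brightest probe set, Cadm1 itself was at 3450 and 4028 in Tslc1+/+ against 775.9 and 604.5 in Tslc1-/-, a log2 change of -2.36 (standard error, SE, 0.19; limma adjusted p = 1.83e-04, by Benjamini-Hochberg), and its other tested probe set had a change of -3.01 (limma adjusted p = 2.31e-05). A log2 change is Tslc1-/- minus Tslc1+/+ on the scale of log2(signal + 50), which understates the change of dim probe sets. Most spermatid markers were lower in Tslc1-/-, and some were called (limma adjusted p under 0.05). Of 10 elongating spermatid markers 9 had a negative change and 6 were called lower (median log2 change -0.52). The list's summed signal was 581676 and 586022 in Tslc1+/+ against 418694 and 392162 in Tslc1-/-. Of 8 tested round spermatid markers 7 had a negative change and 3 were called lower (Tssk2, Gsg1 and Tcp11). The summed signals of the 8 were 199404 and 207030 against 141489 and 141941. Over all tested genes 0.968% were called lower. No marker of either list was dim. In whole testis RNA, fewer cells of a type and less RNA per cell cannot be told apart.

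The calcium-activated potassium channel gene Kcnn1 was the only ion channel gene called between the genotypes, and it fell. The sequences before the start sites of Kcnn1, of its relative Kcnn4, and of Clcn4, a chloride-proton exchanger gene, are shown first, because Kcnn1 is the called gene, though its call is lost under several alternatives given with its values, Kcnn4 had the next largest difference in the same family and was not called, and Clcn4 is one of 2 ion channel genes whose promoter holds a complete cyclic AMP response element. This element, TGACGTCA, is the binding sequence of CREB and of CREM, a transcription regulator of spermatids. The promoters are the 250 bases before to 50 bases after a start site in RefSeq, build GRCm38.p6. Capitals mark TGACG, the core of the element, on either strand, which overlaps the complete element where that is present.
Kcnn1, chr8:70863209-70863508, minus strand: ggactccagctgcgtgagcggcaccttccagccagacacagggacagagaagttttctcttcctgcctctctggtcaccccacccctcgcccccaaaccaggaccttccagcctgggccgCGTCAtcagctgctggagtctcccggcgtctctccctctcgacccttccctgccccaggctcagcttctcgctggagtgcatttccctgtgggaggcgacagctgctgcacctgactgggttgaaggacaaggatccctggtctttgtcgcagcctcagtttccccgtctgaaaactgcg
Kcnn1, second start, chr8:70856959-70857258, minus strand: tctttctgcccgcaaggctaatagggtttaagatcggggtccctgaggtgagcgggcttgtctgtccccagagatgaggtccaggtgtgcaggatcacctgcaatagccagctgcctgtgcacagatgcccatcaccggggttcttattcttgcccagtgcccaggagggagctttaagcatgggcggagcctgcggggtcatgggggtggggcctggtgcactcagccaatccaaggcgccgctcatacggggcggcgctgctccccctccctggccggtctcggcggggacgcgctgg
Kcnn4, chr7:24370013-24370312, plus strand: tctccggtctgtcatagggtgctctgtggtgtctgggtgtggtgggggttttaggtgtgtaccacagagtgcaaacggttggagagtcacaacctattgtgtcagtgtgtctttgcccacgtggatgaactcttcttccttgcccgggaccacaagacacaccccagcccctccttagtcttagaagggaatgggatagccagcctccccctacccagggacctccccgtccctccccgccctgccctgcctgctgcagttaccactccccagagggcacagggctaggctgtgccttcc
Clcn4, chr7:7299508-7299807, minus strand: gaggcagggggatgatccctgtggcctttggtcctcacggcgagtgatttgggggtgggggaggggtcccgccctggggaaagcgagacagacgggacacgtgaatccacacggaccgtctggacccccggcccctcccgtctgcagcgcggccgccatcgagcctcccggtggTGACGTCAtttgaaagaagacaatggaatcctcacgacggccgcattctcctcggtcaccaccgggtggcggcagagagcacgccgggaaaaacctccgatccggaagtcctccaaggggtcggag
Clcn4, second start, chr7:7298787-7299086, minus strand: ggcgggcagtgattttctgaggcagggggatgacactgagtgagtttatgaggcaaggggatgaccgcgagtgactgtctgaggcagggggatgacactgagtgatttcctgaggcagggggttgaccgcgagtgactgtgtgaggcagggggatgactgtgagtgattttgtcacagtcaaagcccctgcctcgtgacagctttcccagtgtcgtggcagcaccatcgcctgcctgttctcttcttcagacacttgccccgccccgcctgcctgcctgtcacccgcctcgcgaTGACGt

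The table held promoters for 67 of the 84 genes, 89 sequences in all. TGACGTCA was found in 2 of these 89 promoters (2.247%), of Clcn3 and Clcn4, against 588 of 32851 promoters in all (1.79%). TGACG on either strand was found in 23 of the 89 (25.84%) and in 20.81% of all promoters. Both shares lay near those of all promoters. Of the Kcnn1 starts, the first had 1 such core and the second had none, and the Kcnn4 promoter had none. The second Clcn4 start had 1 core and no complete element. A match describes the letters of these windows and says nothing of what binds there.

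Most ion channel genes were dim. Of the 84, 41 had a mean signal of at least 200 and 43 were below it, which is 51.2% against 27.4% of all genes. Only 11 reached 1000, 13.1% against 33.2% of all genes. The mark of 200 is a cut in signal and not a detection call. Just inside it lay Kcna2 at 209.3, Clcn5 at 211 and Kcns1 at 225.1, and just outside it Trpm7 at 193.6, Cacng1 at 187.4 and Kcnj11 at 180.9. A signal depends on the probe set as well as on the transcript, so the order of signals is not an order of transcript numbers.

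**Figure D1:**
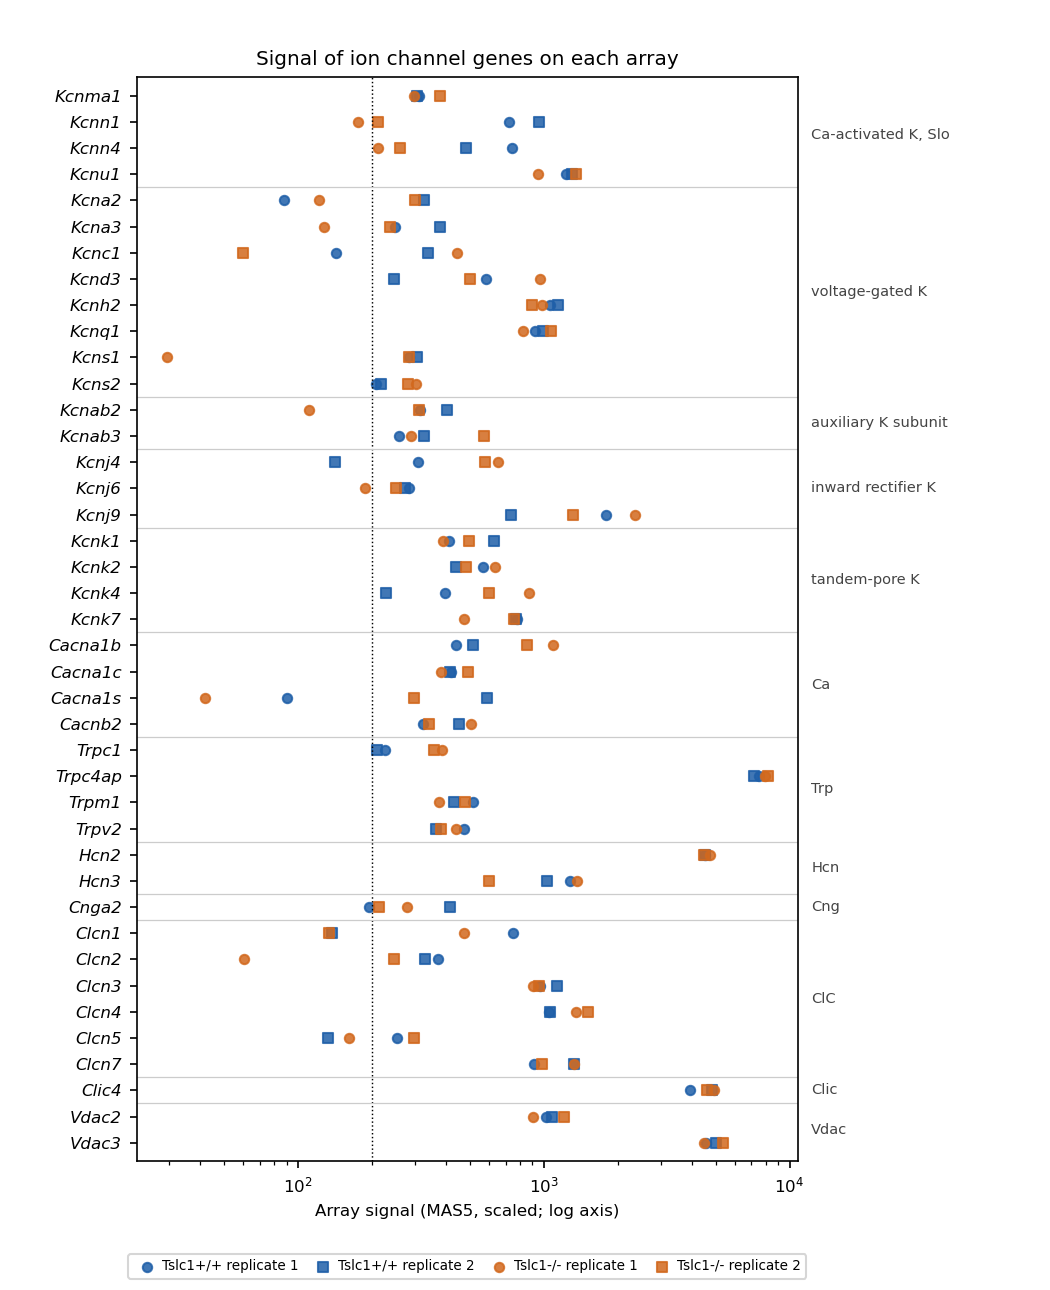
Signal of the 41 ion channel genes at or above a mean of 200 on each of the 4 arrays (log axis), grouped by channel family; blue marks Tslc1+/+ and orange Tslc1-/-, circles replicate 1 and squares replicate 2, and the dotted line is at 200. Kcnn1 is the row in which both orange points, at 175.2 and 210.8, lie farthest below both blue points, at 722.2 and 958.

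The families differed in how many members were dim. All 6 genes of the voltage-gated sodium channel family were dim (Scn1a, Scn3a, Scn7a, Scn8a, Scn9a and Scn10a), with mean signals from 27.5 to 166.9. Voltage-gated sodium channels carry the fast action potentials of nerve and muscle. Among protein-coding genes Scn1a, Scn9a and Scn7a lie next to one another, so 3 of these dim genes are neighbours. Of 12 voltage-gated calcium channel genes 8 were dim (Cacna1a, Cacna1e, Cacna1g, Cacna1h, Cacna2d1, Cacna2d3, Cacng1 and Cacng2). Of 42 potassium channel genes 21 were dim. They were Kcna1, Kcna4, Kcna5, Kcna6, Kcna7, Kcnd1, Kcnd2 and Kcnh1 of the voltage-gated channels, Kcnj1, Kcnj2, Kcnj3, Kcnj5, Kcnj8, Kcnj11, Kcnj12 and Kcnj15 of the inward rectifiers, the tandem-pore channel gene Kcnk3, and the auxiliary subunit genes Kcnab1, Kcne1, Kcne1l and Kcnmb1. The remaining dim genes were Trpc4, Trpc5, Trpc6, Trpm7, Cnga1, Cnga3, Clic3 and Vdac1. None of the 6 ClC genes, the 4 calcium-activated and Slo-family genes or the pair of HCN genes was dim.

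Of the 41 genes that passed the signal filter, 1 was called between the genotypes, lower in Tslc1-/- (limma, Benjamini-Hochberg adjusted p under 0.05 over 7975 probe sets, of which 1.08% were called). Over all tested genes 1.23% were called, 0.968% lower and 0.267% higher, beside 1 of 41 (2.44%) here. All tested genes were brighter, with a median signal of 877.8 against 450.5 for the 41. The median log2 change of the 41 was -0.01, with 20 positive and 21 negative, against 0.02 over all 5992 tested genes. Their genotypes did not overlap for 16 of 41 (39%), 7 higher and 9 lower, against 40.8% of all tested genes, 21.9% higher and 18.8% lower. At an unadjusted p under 0.05 there were 6 of 41 (14.6%), 2 lower and 4 higher, against 10.5% of all tested genes. Call shares differed with signal. Of the 30 ion channel genes below 1000, 1 was called (3.33%), against 0.154% of all tested genes of 200 to 1000. That gene is Kcnn1, whose mean in Tslc1-/- was 193, so it passed the filter of 200 through Tslc1+/+ alone. Of the 11 at or above 1000 none was called, against 2.52% of all tested genes there. At an unadjusted p under 0.05 the shares were 16.7% against 5.81% below 1000 and 9.09% against 16.2% above. The ion channel shares were above all tested genes in the dimmer range and below them in the brighter one, on few genes. The called share in the dimmer range rests on Kcnn1 alone. No difference was tested.

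**Figure D2:**
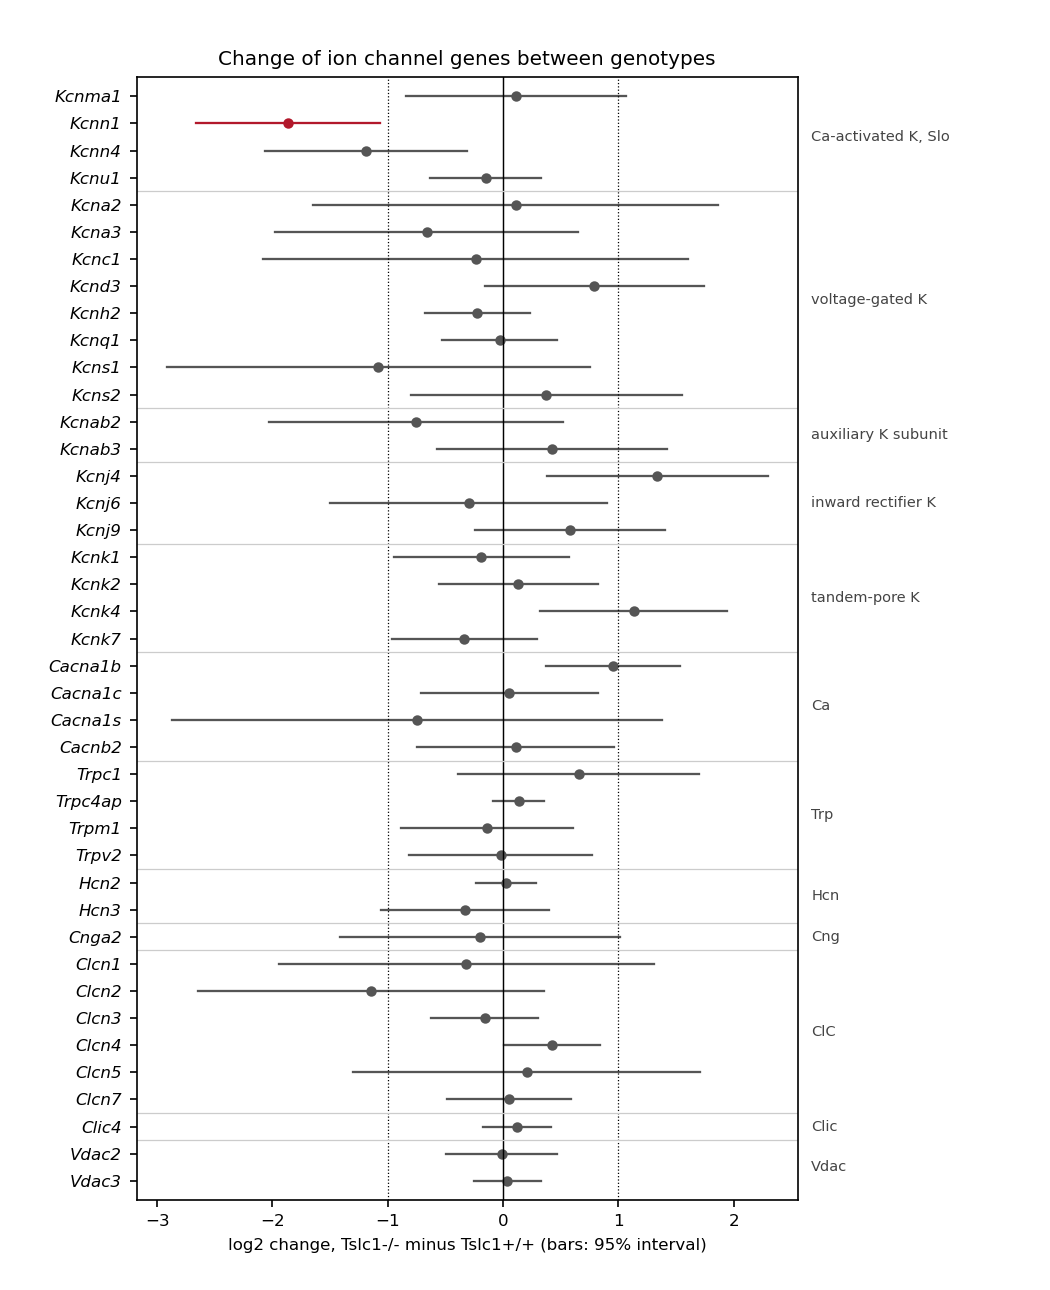
log2 change (Tslc1-/- minus Tslc1+/+, limma) of the 41 ion channel genes at or above a mean signal of 200, by family; points are estimates, bars are 95% intervals, red marks the called gene and dotted lines mark a 2-fold change either way. Kcnn1, at -1.86, is the red point, and its interval from -2.66 to -1.07 lies beyond the 2-fold line.

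Kcnn1, which encodes a small-conductance potassium channel opened by calcium through bound calmodulin, read 722.2 and 958 in Tslc1+/+ against 175.2 and 210.8 in Tslc1-/-. Both Tslc1-/- arrays were below both Tslc1+/+ arrays, and the gap was wider than the spread within either genotype. The means were 840.1 ± 167 and 193 ± 25.2 (SD, n = 2), a 4.35-fold decrease. The log2 change was -1.86 (SE 0.36, limma adjusted p = 0.038). The mean in Tslc1-/- was below 200, so this gene passed the signal filter through Tslc1+/+ alone. The call did not hold when all 12422 probe sets were tested (limma adjusted p = 0.152), over probe sets of at least 500 (0.0511), without the intensity trend (0.308), or with any 1 array left out (0.112 to 0.328), while the log2 change stayed between -2.06 and -1.67 under each alternative. Kcnn1 has a single probe set.

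The other genes of the calcium-activated and Slo family were not called. Kcnn4, the intermediate-conductance relative of Kcnn1, known from red cells, lymphocytes and endothelium, read 746.2 and 481.8 in Tslc1+/+ against 211.8 and 260.1 in Tslc1-/-. The genotypes did not overlap, and the log2 change was -1.19 (SE 0.39, limma adjusted p = 0.278). Its SE was near that of Kcnn1 (0.36), and its change was smaller than the -1.86 of Kcnn1. Kcnu1, the sperm potassium channel gene, read 1231 and 1302 in Tslc1+/+ against 949.8 and 1354 in Tslc1-/-. The groups overlapped, with means of 1266 ± 49.7 and 1152 ± 286 (SD, n = 2), a log2 change of -0.15 and a 95% interval from -0.63 to 0.33 (limma adjusted p = 0.866), an interval inside a 2-fold change either way. Kcnma1, the large-conductance channel gene, read 309.7 and 305.7 against 297.2 and 379.1, with overlap and a change of 0.11.

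The summed signal of endothelial markers was lower in both Tslc1-/- arrays. The endothelial list had 5 genes on the array, with summed signals of 1896 and 1695 in Tslc1+/+ against 854.1 and 836.9 in Tslc1-/-. Neither tested marker passed: Pecam1, an adhesion molecule, was at -1.92 on the log2 scale (limma adjusted p = 0.0694) and Kdr, a VEGF receptor, at -1.13 (0.61). Pecam1 made most of the fall in the sum, with means of 799.3 and 181.1, the latter below 200. Kdr read 508.9 and 390.6 in Tslc1+/+ against 72 and 373.4 in Tslc1-/-, so 1 array made most of its fall. Tek, Cdh5 and Flt1 were dim and their genotypes overlapped, Tek was at 139.9 and 163.1 in mean, and no marker of the list was at 0. The summed signal of 6 Leydig cell markers was 7190 and 7348 against 5823 and 6522, with 4 positive and 2 negative changes and none called. The summed signal of 7 nerve and glia markers was 7644 and 9110 against 6905 and 6981, of which Tubb3, a tubulin, made most, with a mean of 6728 over the 4 arrays, while Snap25, Nefl, Syp and Nefm were dim. The summed signal of 3 blood markers was higher in Tslc1-/-, at 1899 and 2373 against 2721 and 2450. Those tested had 1 positive and 1 negative change. For 6 macrophage markers the sums overlapped, at 3575 and 2873 against 4264 and 3167, with 3 positive and 1 negative change. None of these was called. The part of these cells, and of the spermatids described above, in the values of the channel genes was not tested.

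None of the 8 voltage-gated potassium channel genes above 200 was called, with 3 positive and 5 negative changes. Kcnh2, the channel of the delayed rectifier current of the heart and the brightest of them, read 1060 and 1146 in Tslc1+/+ against 986.2 and 892.6 in Tslc1-/-. Its genotypes did not overlap, by a margin smaller than the spread within a genotype, with a log2 change of -0.22 and a 95% interval from -0.68 to 0.23 (limma adjusted p = 0.784). Kcnq1, another delayed rectifier channel gene, read 920 and 995.1 against 821.7 and 1069, with overlap and a change of -0.03. Kcna3, a channel gene known from lymphocytes, read 247.8 and 379.6 against 128.2 and 236.2. It did not overlap, its mean in Tslc1-/- was below 200, and its change was -0.66 (SE 0.59, limma adjusted p = 0.776). For Kcns1, which encodes a subunit that forms no channel alone, 1 array set the difference: it read 282.4 and 305.6 in Tslc1+/+ against 283.1 in Tslc1-/- replicate 2, but 29.2 in Tslc1-/- replicate 1. The changes of Kcnd3, Kcns2, Kcna2 and Kcnc1 were 0.79, 0.37, 0.11 and -0.24, with standard errors from 0.43 to 0.83.

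The auxiliary subunits above 200 were the beta subunit genes Kcnab2 and Kcnab3, whose products bind voltage-gated channels from the cell interior. Kcnab2 read 313.3 and 402.8 in Tslc1+/+ against 110.7 and 309.7 in Tslc1-/-. The values met almost end to end, so the lack of overlap rests on a difference of a few signal units, and the log2 change was -0.75 (SE 0.57, limma adjusted p = 0.727). Kcnab3 read 258.5 and 325.4 against 287.4 and 570.7, with overlap and a change of 0.43 (SE 0.45, limma adjusted p = 0.805).

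The inward rectifiers, which hold cells near the potassium equilibrium, had 3 of 11 genes above 200. Kcnj4 had the largest positive change of all the ion channel genes tested. It read 308.5 and 141.4 in Tslc1+/+ against 650.3 and 577.2 in Tslc1-/-, without overlap, and its log2 change of 1.34 (SE 0.43) did not pass (limma adjusted p = 0.26). Kcnj9, a subunit of channels opened by G proteins, was the brightest. It read 1798 and 736.9 against 2344 and 1316, a spread within each genotype that exceeded the difference of 0.58 between them (limma adjusted p = 0.672), and replicate 1 was the higher array in both. Kcnj6, a partner of the same channels, read 282.5 and 273 against 186.7 and 250, with a change of -0.30 (SE 0.54, limma adjusted p = 0.902).

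The tandem-pore channels, which carry background potassium current, had 4 of 5 genes above 200. Kcnk4, a mechanically gated member, read 397.6 and 227.9 in Tslc1+/+ against 867.9 and 601 in Tslc1-/-. Its genotypes did not overlap, and the log2 change of 1.13 (SE 0.36) did not pass (limma adjusted p = 0.26). Kcnk7, the brightest of this family, read 776.8 and 768.8 against 473.6 and 760.4. One Tslc1-/- array lay at the Tslc1+/+ level and the other below it, with a change of -0.34 (limma adjusted p = 0.757). Kcnk1 and Kcnk2 had changes of -0.19 and 0.13, each with overlapping genotypes.

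Of the voltage-gated calcium channel genes, 4 of 12 were above 200 and none was called. Cacna1b, the pore subunit of the N-type channel of nerve endings, came nearest to a call after Kcnn1 among the ion channel genes. It read 437.9 and 517.6 in Tslc1+/+ against 1090 and 856.7 in Tslc1-/-, with means of 477.8 ± 56.4 and 973.6 ± 165 (SD, n = 2). The genotypes did not overlap, the mean was 2.04-fold higher, and the log2 change was 0.95 (SE 0.26, limma adjusted p = 0.165). Cacna1c, the pore subunit of the cardiac L-type channel, read 418.5 and 415.4 against 382.3 and 493.9, with a change of 0.05. Cacna1s, its counterpart in skeletal muscle, read 90.4 and 586.2 against 41.8 and 296.1, so the arrays of a genotype differed more than the genotypes. The beta subunit gene Cacnb2 had a change of 0.11.

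**Figure D3:**
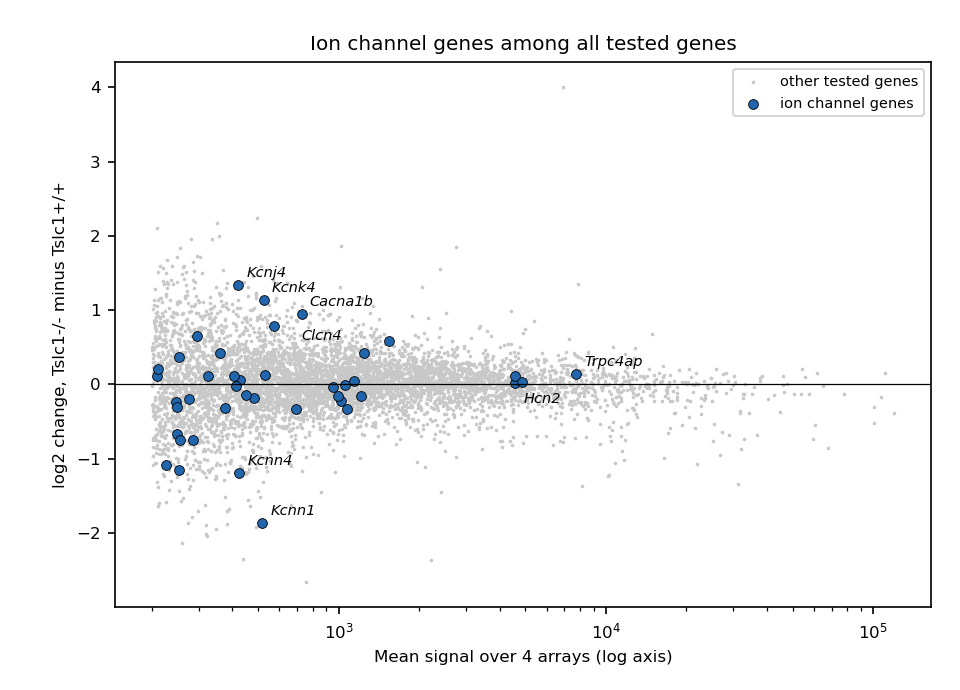
log2 change (Tslc1-/- minus Tslc1+/+) against the mean signal over 4 arrays (log axis) for all 5992 tested genes in grey, with the 41 ion channel genes in blue and some of them named. The ion channel genes of signals over 1000 lie between -0.33 and 0.58, and those with larger changes, Kcnn1 at -1.86 and Kcnj4 at 1.34 among them, have mean signals below 1000.

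The cation channels of the TRP, HCN and cyclic nucleotide-gated families were not called. Trpc1, a subunit of receptor-operated cation channels, read 226.1 and 208.8 in Tslc1+/+ against 385.6 and 357.3 in Tslc1-/-. Its replicates lay close together and its genotypes did not overlap, but at this signal the standard error was 0.47 and the log2 change of 0.66 did not pass (limma adjusted p = 0.708). Trpv2 and Trpm1 had changes of -0.02 and -0.14. Trpc4ap, the binding protein, read 7484 and 7192 against 7962 and 8170, without overlap, with a change of 0.14 and a 95% interval from -0.09 to 0.36 (limma adjusted p = 0.718).

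Hcn2, which encodes a channel of pacemaker current, read 4527 and 4528 in Tslc1+/+ against 4731 and 4496 in Tslc1-/-. The groups overlapped, and the change was 0.03 with a 95% interval from -0.23 to 0.28 (limma adjusted p = 0.968). A second Hcn2 probe set was dim, at 27.5 and 53 against 223.6 and 29.7. The names of both carry a suffix, r for the brighter and s for the dim one. By such suffixes Affymetrix marks probe sets outside its standard design, some of which, as with s, can hybridise to other transcripts. Hcn3 read 1285 and 1032 against 1363 and 599.2, where 1 Tslc1-/- array stood below the rest, with a change of -0.33 (limma adjusted p = 0.796). Cnga2, the olfactory cyclic nucleotide-gated subunit, read 194.6 and 414.7 against 278.9 and 212.7, with overlap and a change of -0.20 (SE 0.55, limma adjusted p = 0.942).

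All 6 ClC chloride channel and exchanger genes had signals above 200, and none was called. Clcn4, an endosomal exchanger gene whose promoter is shown above, read 1048 and 1058 in Tslc1+/+ against 1357 and 1511 in Tslc1-/-. Its genotypes did not overlap and were farther apart than their replicates, with means of 1053 ± 7.14 and 1434 ± 109 (SD, n = 2), a log2 change of 0.43 (SE 0.19, limma adjusted p = 0.481). A second Clcn4 probe set, at 271.1 and 454.5 against 348.1 and 485.2, overlapped and had a change of 0.20. Clcn3, the related endosomal gene that shares the complete response element, read 969 and 1128 against 908.2 and 953.7, with a change of -0.16 (limma adjusted p = 0.85).

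Clcn7, the lysosomal exchanger gene, read 910 and 1328 against 1328 and 982.5, with overlap and a change of 0.05 (limma adjusted p = 0.969), on a probe set with a suffix. Its other tested probe set, without a suffix, read 170.5 and 388.2 against 480.6 and 399.5, with no overlap and a change of 0.65 (SE 0.46, limma adjusted p = 0.706). Clcn5, an endosomal exchanger gene of the kidney, read 252.5 and 132.5 against 161.2 and 297.6, with a change of 0.21 (SE 0.68, limma adjusted p = 0.956). These arrays set only wide limits on Clcn5. Clcn2, a plasma membrane chloride channel gene whose loss in mice is known to cause degeneration of the germ cells, read 373 and 328.2 in Tslc1+/+ against 60.5 and 245.8 in Tslc1-/-. It did not overlap, its mean in Tslc1-/- was below 200, and its log2 change of -1.15 had a standard error of 0.67 (limma adjusted p = 0.642). Clcn1, the skeletal muscle chloride channel gene, read 749.7 and 137.8 against 475.7 and 133.7, so replicate 1 was the higher array in both genotypes. A second, dim Clcn1 probe set with a suffix read 246.4 and 232.6 against 45.6 and 38.8, without overlap, at -1.65 in the unfiltered fit (limma adjusted p = 0.385).

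Clic4, an intracellular protein of the CLIC family, read 3942 and 4837 in Tslc1+/+ against 4908 and 4599 in Tslc1-/-. The groups overlapped, and the change was 0.12 with a 95% interval from -0.18 to 0.42 (limma adjusted p = 0.813). Its other probe sets were tested too and had changes of -0.40 and 0.24 (limma adjusted p = 0.417 and 0.751).

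The VDAC porins let metabolites cross the outer mitochondrial membrane. Vdac3, whose loss in mice is known to impair sperm motility, read 4561 and 5032 in Tslc1+/+ against 4496 and 5378 in Tslc1-/-. The Tslc1-/- arrays spanned the Tslc1+/+ arrays, and the change was 0.04 with a 95% interval from -0.25 to 0.33 (limma adjusted p = 0.96). Vdac2 read 1024 and 1082 against 906.5 and 1205, also with overlap, a change of -0.01 and an interval from -0.49 to 0.47 (limma adjusted p = 0.993). The Vdac1 probe set was dim, with a mean of 131.6.

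The precision of these values followed the signal. The median standard deviation of log2 values within a genotype was 0.32 for ion channel genes of 200 to 1000 and 0.15 for those at or above 1000, against 0.32 and 0.13 for all tested genes in the same ranges. The 95% interval lay inside a 2-fold change either way for 18 of the 41 genes, 9 of 11 at or above 1000 and 9 of 30 below. For the other 22 genes that were not called, these arrays do not exclude a 2-fold change. Of the 41, 6 had a mean below 200 in 1 genotype: Kcnn1, Clcn2, Kcns1, Cacna1s and Kcna3 in Tslc1-/- and Clcn5 in Tslc1+/+.

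Among the 43 dim genes, none was called when all 12422 probe sets were tested (limma, lowest adjusted p = 0.511), where 0.642% of all genes were called, 0.521% lower. At an unadjusted p under 0.05 there were 2, both lower in Tslc1-/-, which are named here after their values were seen. That is 4.65% of the dim genes, against 9.28% of all genes in the same fit. Cacna1e, a pore subunit of the R-type calcium channel, read 166 and 235.3 in Tslc1+/+ against 48.4 and 44.6 in Tslc1-/-. Trpc4, a partner of Trpc1 in cation channels, read 161.4 and 138.4 against 28 and 47.3, on a single probe set with the suffix s. Their genotypes did not overlap, as for 20 of the 43 dim genes (46.5%) and 39.0% of all genes, and their log2 changes were -1.36 and -1.20. A second Cacna1e probe set, at 44 and 80.2 against 238.4 and 36.8, overlapped.

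The brightest probe set carried a suffix for 6 of the 41 genes (Cacna1c, Clcn7, Hcn2, Kcnj9, Kcnq1 and Vdac2). Of the 84 genes, 22 were read by more than 1 probe set. All probe sets were dim for 8 of them, and for 6 the brightest was above 200 and the others dim, namely Hcn2, Vdac2, Kcnq1, Clcn1, Trpc1 and Cnga2. For the other 8 another probe set was tested as well. The probe sets had changes of one sign for 6 of these (Clcn4, Clcn5, Clcn7, Kcnab2, Kcnj6 and Kcnj9) and of opposite signs for Clcn3 and Clic4. The second tested Kcnj9 probe set read 1069 and 905.3 in Tslc1+/+ against 1054 and 1107 in Tslc1-/-, a change of 0.13 against 0.58 on the brighter one. The second tested Kcnj6 and Kcnab2 probe sets had changes of -0.77 and -0.34.

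**Figure D4:**
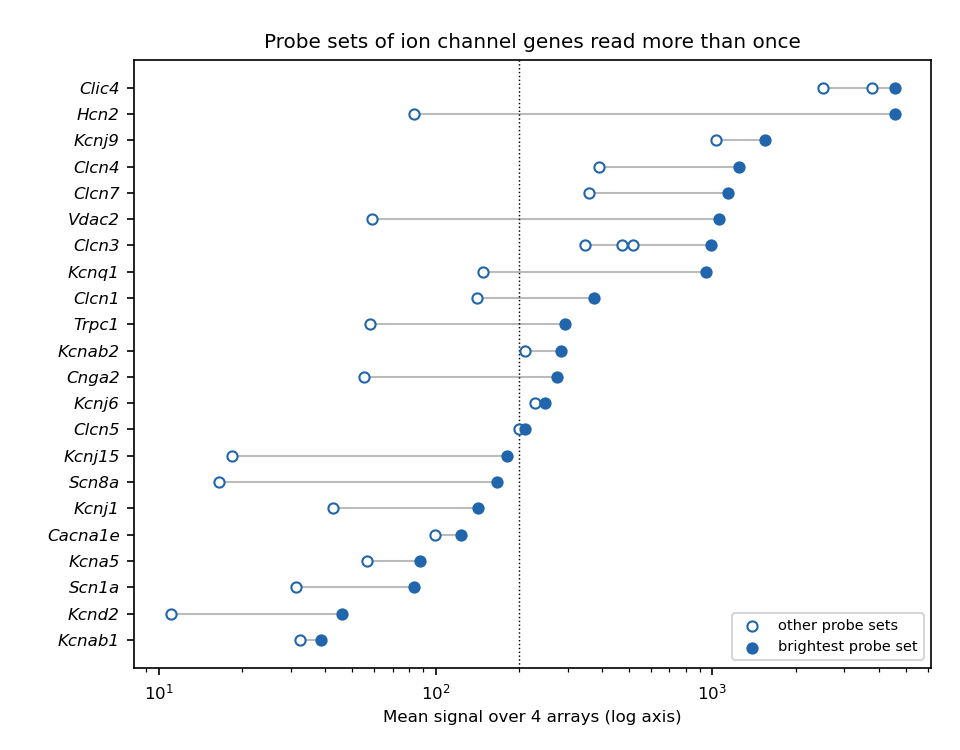
Mean signal over 4 arrays (log axis) of each probe set of the 22 ion channel genes read more than once; filled points are the brightest probe set of a gene, open points the others, and the dotted line is at 200. For Hcn2 the probe sets lie farthest apart among genes above 200, at 4571 and 83.5.

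Other ion transport genes were compared in the same fit. Of 14 tested pump and exchanger genes none was called, with 8 positive and 6 negative changes. Atp1b3, a beta subunit of the sodium-potassium pump and the brightest of them, was at 20566 ± 1112 in Tslc1+/+ and 15731 ± 638 in Tslc1-/- (SD, n = 2), a log2 change of -0.39 that did not pass (limma adjusted p = 0.0814). Of 20 tested ligand-gated and intracellular release channel genes none was called, with 10 positive and 10 negative changes. The brightest was Chrne, a subunit of the muscle acetylcholine receptor, with a change of 0.10, and Grin2b, a glutamate receptor subunit, had one of -0.47 (limma adjusted p = 0.332). The list of calcium sensors and channel regulators was broad and also held genes of other main functions, among them Hk1, Hspa9, Tspo, Bcl2l1, Slc25a4 and Slc25a5. Of its 15 tested genes none was called, with 11 positive and 4 negative changes. The brightest was Gnai2, a G protein subunit, with a change of -0.07. The adenylyl cyclase gene Adcy3 had the smallest p of this list, with 530.2 ± 4.24 and 108.4 ± 29.6 (SD, n = 2) and a change of -1.89 (limma adjusted p = 0.179). Its mean in Tslc1-/- was below 200, so Adcy3 passed the signal filter through Tslc1+/+ alone.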

How the data were processed

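Testis RNA was measured on 4 Affymetrix MG-U74Av2 arrays, 2 per genotype as the titles give it. Per the labels' design text, the authors turned each probe set's scanned intensity into a linear signal in Microarray Suite 5.0 (MAS5, a version that the submitters' processing notes name), with a scaling target of 1000. With the top and bottom 2% of probe sets trimmed, every array averaged 1001. Such scaling hides a change in total RNA. Detection calls were not used here. The number of arrays limits the precision, and with 2 arrays against 2 the smallest two-sided p of an exact permutation is 0.333.

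Probe sets were named by the platform annotation, with symbols taken through Entrez identifiers from RefSeq genes of GRCm38.p6. Of 12488 probe sets, 66 controls were left out. Those with several genes (396) or none (1193) name no gene. Genotypes were compared with lmFit and eBayes (intensity trend on) of limma 3.58.1, under R 4.3.3, on log2(signal + 50), over 7975 probe sets of mean signal at least 200, two-sided, Benjamini-Hochberg adjusted over all of them. The fit was also run on simulated data with variances drawn from itself, which cannot show its error rate on real arrays. Values are means and SD over 2 arrays. Named with full values are called genes, the 10 brightest, the 5 largest changes each way without overlap, the brightest of each family and genes with another tested probe set; others are given in part. The symbol rule uses no values, but it and all gene lists were set with earlier results of these data known. Marker lists of spermatogonia, spermatocytes, Sertoli, Leydig, myoid, striated muscle, macrophage, epididymis, blood and fat cells were read too: in them only Pgk2, a spermatocyte gene, was called, lower. Alternatives were the pseudocount, filter, trend, normalization, replicate block, suffixed probe sets, the mean over probe sets, and leaving out each array.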

Additional observations from a re-analysis of the deposited data

How the results depend on the processing

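Kcnn1 was the 1 ion channel gene called in the main analysis and also with a pseudocount of 16 or 100, quantile normalization, equal array medians, the replicate block, suffixed probe sets left out and the mean over probe sets. The count was 0 with no signal filter, with a filter at 500, with no intensity trend and with each array left out, and the cause was not tested. Over all probe sets 86 were called, 0 with no trend (638 at an unadjusted p under 0.05), and 37 to 43 with 1 array left out, where fewer samples remain. With the replicate block 239 were called, but same-numbered arrays share only a number: their deviations correlated at -0.001 over 7975 probe sets. The median log2 change of the ion channel genes was -0.01 and lay from -0.06 to 0.04 under the alternatives. At a mark of 500, 19 of the 84 genes were above it in place of 41, and 28 reached 200 on all 4 arrays.

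Of 26 named genes, 14 kept their sign under every alternative run. The others were not called under any. With the mean over probe sets, Clcn3 was at 0.10 and Clic4 at -0.013. With 1 array left out the changes ran from -0.16 to 0.57 for Clcn5, -0.21 to 0.31 for Clcn7, -0.025 to 0.27 for Clic4, -0.66 to 0.27 for Cnga2, -0.010 to 0.063 for Hcn2, -0.89 to 0.23 for Hcn3, -0.012 to 0.87 for Kcnab3, -0.031 to 1.20 for Kcnj9, -0.40 to 0.094 for Kcnu1, -0.21 to 0.19 for Vdac2 and -0.091 to 0.17 for Vdac3. Clcn7 was at 0.65 with suffixed probe sets left out and at 0.35 as the mean over probe sets.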
